A study of Danio rerio with 4 samples.

Results

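The RNA of zebrafish embryos of ybx1 mutant mothers was set against that of wild-type embryos at 0 hours post fertilisation (hpf), when an embryo holds the RNA laid down in the egg. A gene was counted when its mean level over both libraries was at least 1 FPKM (fragments per kilobase of gene, scaled to library size), which kept 13811 of the 31870 genes listed. The groups used here are Mybx1 at 0 hpf, from embryos labelled as the maternal ybx1 mutant, and WT at 0 hpf, from wild-type embryos, with 1 library each. The Mybx1 and WT libraries of 6 hpf, also 1 each, served to follow the same genes to a later stage. All 4 libraries held total RNA depleted of ribosomal RNA. The sources used here give no allele of the mutation, no genotype of the fathers, no age or strain of the parents, and no number of embryos or clutches per library. At the threshold, tenm3 (0.407 FPKM in Mybx1 and 1.59 FPKM in WT; 2 genes carry this symbol) and hmgn3 (1.54 and 0.458 FPKM in that order) were counted, and nsun3 (1.41 and 0.585 FPKM) was not.

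Ybx1 is a cold shock domain protein that binds RNA and packages stored mRNA, and its relatives in the oocytes of vertebrates hold maternal mRNA in a form that is kept from translation. The fertilised egg of the zebrafish does not transcribe its genome, so its first divisions run on RNA and protein made by the mother. A difference at 0 hpf can therefore lie in what the oocyte and egg contained, or in what was collected with them. Clutches, RNA extraction and library preparation may also differ between the libraries, and their part in the differences was not tested.

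Reads behind the FPKM values totalled 7303656 in Mybx1 and 7570070 in WT at 0 hpf, and 6042830 and 6240685 at 6 hpf. At 0 hpf 20353 genes were above 0 in Mybx1 and 19275 in WT, although the Mybx1 library was the smaller. Below, a gene is called higher or lower in Mybx1 when log2(FPKM + 1) differed by at least 1, which is 2-fold in FPKM + 1. Calls past or within 2-fold are on this scale, so at low levels a gene within 2-fold can have an FPKM ratio above 2. Folds of single genes are FPKM ratios, followed in parentheses by a 95% interval (exact, conditional binomial) that covers counting error only. No difference has a replicate check, so each one compares 2 libraries and carries no test.

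Most of the stored RNA was at like levels in both libraries, and the genes that differed were mainly of low or middle level. Of 13811 counted genes 1222 were higher in Mybx1 (8.85%), 926 were lower (6.7%) and 11663 stayed within 2-fold (84.4%). Counts of list members past 2-fold, given below, are to be read beside these shares. A member nearly absent from WT had to be higher in Mybx1 to be counted, and a member nearly absent from Mybx1 had to be lower. Shares of a list therefore describe its counted members alone. At least 4-fold apart were 225 genes above WT (1.63%) and 191 below (1.38%). The median difference was 0.07 on the log2 scale, and the quartiles lay at -0.30 and 0.43. Levels correlated across genes with a Pearson r of 0.92 (log2(FPKM + 1)) and a Spearman rho of 0.93, over genes of the same pair of libraries. The counting interval excluded 1 for 1170 of the higher and 891 of the lower genes. Higher genes made up 56.9% of the calls, but 44.9% with a pseudocount of 5 and 46.1% among genes with a mean of at least 5 FPKM, where 524 were higher and 613 lower.

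**Figure D1:**
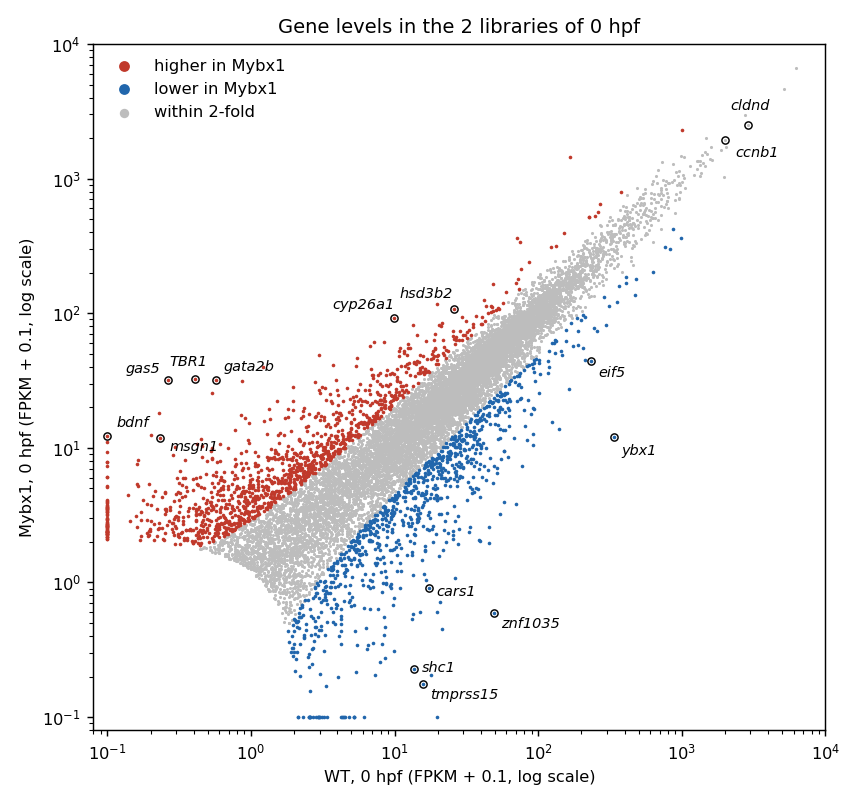
Each point is 1 of the 13811 counted genes, with its level at 0 hpf in WT on the x axis and in Mybx1 on the y axis (FPKM + 0.1, both axes logarithmic); red points are higher and blue points lower in Mybx1 by at least 2-fold, grey points lie within 2-fold. The 1222 red points lie mostly at low WT levels, and ybx1 stands out at 11.9 FPKM in Mybx1 and 338 FPKM in WT.

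Both libraries held the transcripts of an egg. All 23 oocyte and egg genes matched were counted, 21 of them stayed within 2-fold, and they summed to 13959 FPKM in Mybx1 and 14785 FPKM in WT. The oocyte linker histone gene h1m stood at 1017 FPKM in Mybx1 and 1035 FPKM in WT, buc, which organises the germ plasm, at 524 and 582 FPKM, and mos, which encodes the kinase of the meiotic arrest, at 199 and 195 FPKM. Genes that the embryo switches on later were near 0: tbxta, a T-box gene of the notochord, had 0.268 FPKM in Mybx1 and 0 in WT, and chrd, a BMP antagonist, 0.0416 FPKM and 0. Of 38 early zygotic genes matched, 3 were counted, with FSCN1 (29.5 FPKM in Mybx1 and 62.2 FPKM in WT) past 2-fold, and the uncounted members summed to 9.75 FPKM in Mybx1 and 3.69 FPKM in WT. Symbols in capitals are given in their human form.

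Markers of other tissues were low, but most of the lists summed to more in Mybx1. The sums were 88.0 FPKM in Mybx1 and 53.4 FPKM in WT for 18 markers of follicle cells and ovary stroma, 5.33 and 1.76 for 13 of blood, 1.17 and 1.66 for 14 of liver, 8.55 and 3.50 for 10 of muscle, 77.4 and 27.2 for 15 of testis and sperm, and 139 and 54.5 for 25 neural genes. Nearly all of the follicle sum was cyp17a1, an enzyme of steroid synthesis (82.5 FPKM in Mybx1 and 48.9 FPKM in WT). The other counted follicle marker, FOXL2 (2 genes carry the symbol), was at 1.27 FPKM in Mybx1 and 2.76 FPKM in WT. That is 2.17-fold lower as an FPKM ratio (0.898 to 5.77), but not called lower in FPKM + 1. Among the uncounted ones fshr, the receptor of follicle-stimulating hormone, was at 0 in both libraries. Also uncounted were gsdf at 0.131 and 0.127 FPKM and amh at 0.253 and 0.163 FPKM. In Mybx1, but not in WT, the testis sum was mostly spata18. This gene was 8.57-fold higher in Mybx1 (6.59 to 11.3) at 56.8 FPKM in Mybx1 and 6.63 FPKM in WT. The sperm tail gene tekt1 was at 0.286 and 0.184 FPKM. The largest part of the neural sum was EOMES, within 2-fold at 55.8 FPKM in Mybx1 and 44.0 FPKM in WT. Of 8 counted neural genes 4 were higher (50%, beside 8.85% of all counted genes). These were TBR1, bdnf, pmp22a (25.2 FPKM in Mybx1 and 0.432 FPKM in WT) and SNAP25 (2.70 and 0.602 FPKM), and 2 genes carry each of the last 2 symbols. All 4 were under 1 FPKM in WT and were counted only through their level in Mybx1. TBR1 and bdnf were also among the 15 genes furthest up. Because the marker lists were drawn up with earlier results of these data known, this count and the neural sum are no independent evidence. Defining genes of neurons and glia were near 0: elavl3 at 0.0765 FPKM in Mybx1 and 0 in WT, gfap at 0.0517 FPKM and 0, and mbpa at 0.753 and 0.581 FPKM. The leukocyte gene coro1a was the 1 counted blood marker and higher, at 2.79 FPKM in Mybx1 and 0.729 FPKM in WT. It too was counted only through its level in Mybx1. Of the remaining defining genes, hbaa1 of red blood cells was at 0.421 FPKM in Mybx1 and 0 in WT, alas2 at 0.239 and 0.0768 FPKM, ckma of muscle at 1.64 and 0.417 FPKM, and vtg1 of liver at 0 in both. In bulk RNA, fewer cells of a type and less RNA per cell cannot be told apart.

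The mutated gene was low in the library labelled Mybx1. The level of ybx1 was 11.9 FPKM in Mybx1 and 338 FPKM in WT at 0 hpf, 28.5-fold lower in Mybx1 (23.2 to 35.4), and 54.2 and 2287 FPKM at 6 hpf. Of 49 counted genes for cold shock proteins and other proteins of stored mRNA, 2 were higher and 4 lower, with a median log2 difference of 0.02 that turned to -0.02 as TPM (FPKM rescaled to a common sum) and -0.07 with median-ratio scaling. Higher were LIN28A (335 FPKM in Mybx1 and 74.5 FPKM in WT; 2 genes carry the symbol), which itself has a cold shock domain and binds precursors of let-7, and igf2bp1 (66.7 and 26.8 FPKM), which binds and stabilises mRNA. Lower besides ybx1 were ythdf3, which binds m6A in mRNA, 4.80-fold (3.83 to 6.08), stau1, which binds double-stranded RNA, 3.48-fold (2.467 to 4.996), and caprin2, 2.03-fold (1.91 to 2.16).

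The genes higher in Mybx1 were at low levels in WT. Their median was 6.61 FPKM in Mybx1 and 1.47 FPKM in WT, and 65 of them had 0 reads in WT. The genes lower in Mybx1 came from further up the range, with medians of 3.55 FPKM in Mybx1 and 14.3 FPKM in WT, and 30 had 0 reads in Mybx1. The share of genes higher in Mybx1 was 18.6% at a mean of 1 to 2 FPKM, 19.7% at 2 to 5 FPKM, 7.74% at 10 to 20 FPKM and 1.54% at 100 FPKM or more. The share lower in Mybx1 was 6.58%, 10.1%, 9.27% and 2.31% in the same classes, so that lower genes outnumbered higher ones in the 2 upper classes.

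Direction also varied with gene length. Genes higher in Mybx1 had a median length of 1392 bases, those lower 1951 bases and those within 2-fold 1654 bases, as recovered from the FPKM values. These are the smallest lengths that fit the values, so they are lower limits. Whether they fall short by more in some sets of genes was not tested. Among genes under 1 kb 13% were higher and 5.45% lower, and among genes of 4 kb or more 4.6% were higher and 10.4% lower. With a mean of at least 5 FPKM the shares were 8.33% and 3.85% under 1 kb, and 1.64% and 9.37% at 4 kb or more. At 6 hpf 31.5% of genes under 1 kb were higher in Mybx1 and 26.8% lower, and 34.4% and 21.8% of genes of 4 kb or more, so the order of the shares by length was not that of 0 hpf. The part of length, RNA quality or fragment size in the differences below was not tested.

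**Figure D2:**
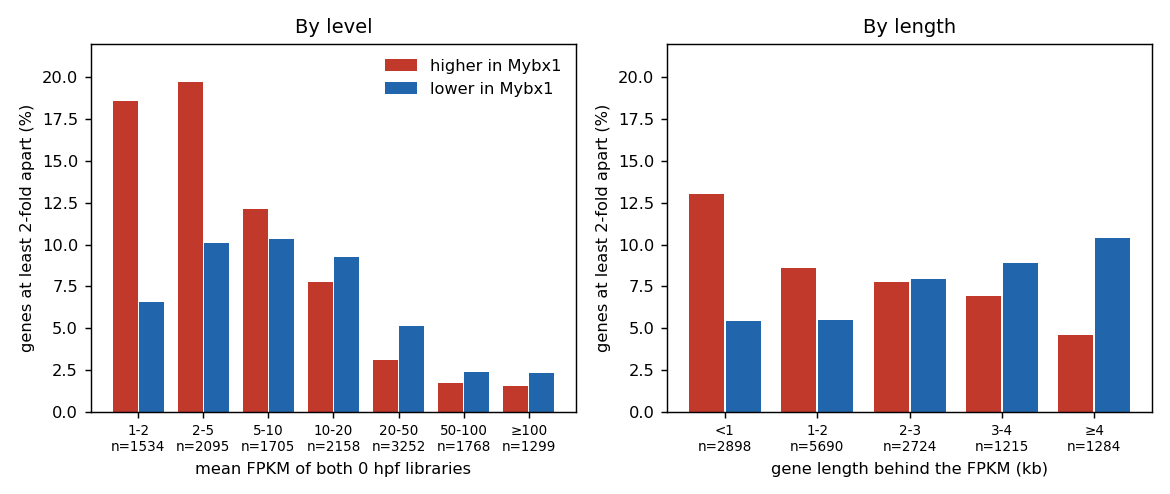
Bars give the percentage of counted genes at least 2-fold higher (red) or lower (blue) in Mybx1 at 0 hpf, by mean FPKM of both libraries in the left panel and by gene length in kb in the right panel, with the number of genes under each class. Higher genes reach 19.7% at 2 to 5 FPKM and 1.54% at 100 FPKM or more; by length they run between 13% under 1 kb and 4.6% at 4 kb or more, where lower genes reach 10.4%.

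The most abundant transcripts of the egg were shared. The RNA components of RNase MRP and RNase P, rmrp and rpph1, stood at 6597 and 2958 FPKM in Mybx1 and at 6206 and 2767 FPKM in WT. Among mRNAs the claudin gene cldnd had 2508 FPKM in Mybx1 and 2904 FPKM in WT, and ccnb1, the cyclin of entry into M phase, 1922 and 1997 FPKM. The egg histone gene h2af1al had 1633 FPKM in Mybx1 and 1873 FPKM in WT, and ACP5, a phosphatase, 1705 and 2027 FPKM. Of the 10 genes with the highest mean, 1 was past 2-fold, a gene with no symbol at 2306 FPKM in Mybx1 and 999.8 FPKM in WT. The actin genes actb1 (1025 FPKM in Mybx1 and 1956 FPKM in WT) and actb2 (319 and 456 FPKM) stayed short of 2-fold, though actb1 passed it with median-ratio scaling (-1.02).

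The genes furthest above WT included several that are known for tissues formed after gastrulation. Furthest was gas5, whose introns hold small nucleolar RNAs, with 31.7 FPKM in Mybx1 and 0.166 FPKM in WT, 191-fold higher (33.8 to 7573). The T-box gene TBR1, known from the forebrain, had 32.6 FPKM in Mybx1 and 0.308 FPKM in WT, 106-fold higher (55.5 to 232). The GATA factor gene gata2b had 31.7 FPKM in Mybx1 and 0.473 FPKM in WT, 66.9-fold higher (32.2 to 167). Each of these was nearly silent in WT and of middle level in Mybx1. AANAT, an enzyme of melatonin synthesis, had 39.9 FPKM in Mybx1 and 1.11 FPKM in WT, 35.9-fold higher (18.7 to 79.3). The neurotrophin gene bdnf had 12.04 FPKM in Mybx1 and 0 reads in WT, at least 37.3-fold higher against the level of 3 reads. The homeobox gene NKX6-2 was 33.0-fold higher (14.9 to 91.0) and the DM domain gene DMRT2 52.2-fold higher (17.5 to 256), both under 0.4 FPKM in WT. The mesoderm gene msgn1 had 11.7 FPKM in Mybx1 and 0.134 FPKM in WT. Genes of the cell surface and cortex were also among the 15 furthest up, with the ephrin receptor gene epha2a at 19.5 FPKM in Mybx1 and 1.24 FPKM in WT, marcksl1b, which binds actin, at 41.2 and 3.62 FPKM, and cnn2, a calponin, at 28.1 and 1.85 FPKM. The others were ndnf, a secreted factor, at 10.6 FPKM in Mybx1 and 0.323 FPKM in WT, btr02 at 22.03 and 1.42 FPKM, si:ch211-245h14.4 at 12.3 and 0.102 FPKM, and si:dkey-219e21.2 at 17.5 and 0.755 FPKM.

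At 6 hpf some of these genes were above WT and others below it. In Mybx1 gata2b had 28.1 FPKM at 6 hpf, bdnf 13.9 FPKM, TBR1 21.9 FPKM and AANAT 23.0 FPKM, within 2-fold of their 0 hpf levels and above WT at 6 hpf (0, 1.04, 2.45 and 2.24 FPKM). For gas5, msgn1, epha2a, marcksl1b and ndnf the Mybx1 level at 6 hpf (53.6, 10.9, 17.2, 234 and 3.47 FPKM) lay below that of WT (165, 67.9, 114, 1583 and 10.5 FPKM). Of the 15 genes furthest up at 0 hpf 9 were higher and 5 lower in Mybx1 at 6 hpf. Of all genes counted at both stages 44.2% were higher and 12.8% lower in Mybx1 at 6 hpf.

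The genes furthest below WT besides ybx1 had varied roles. The zinc finger gene znf1035 had 0.491 FPKM in Mybx1 and 49.1 FPKM in WT, 99.99-fold lower in Mybx1 (71.1 to 146). The protease gene tmprss15, known as enteropeptidase, had 0.0750 FPKM in Mybx1 and 15.7 FPKM in WT, 209-fold lower (57.5 to 1730). The relative of a subunit of the HUSH silencing complex, tasor2, had 3.74 FPKM in Mybx1 and 70.5 FPKM in WT, 18.9-fold lower (13.9 to 26.2). All 3 were of middle level in WT and at no more than a few FPKM in Mybx1. The splicing cofactor gene sona was 26.9-fold lower (17.6 to 43.2), prr14, which tethers heterochromatin to the lamina, 20.5-fold (14.8 to 29.4), and the PHD and RING finger gene phrf1 19.7-fold (15.8 to 24.9). The small GTPase gene arf6b was 33.9-fold lower (18.2 to 71.2), and the centrosomal gene lrrcc1 17.3-fold (13.4 to 22.7). The Tudor domain gene tdrd15 was 18.2-fold lower (14.1 to 23.9), bnip4 29.9-fold (9.92 to 148) and si:ch211-161h7.4 39.7-fold (24.3 to 69.8). At 6 hpf 14 of the 15 genes furthest down at 0 hpf were again lower in Mybx1, all but lrrcc1, beside 12.8% of all genes counted at both stages. Among the 14, phrf1 was at 2.05 FPKM in Mybx1 and 39.1 FPKM in WT and znf1035 at 1.74 and 38.6 FPKM.

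**Figure D3:**
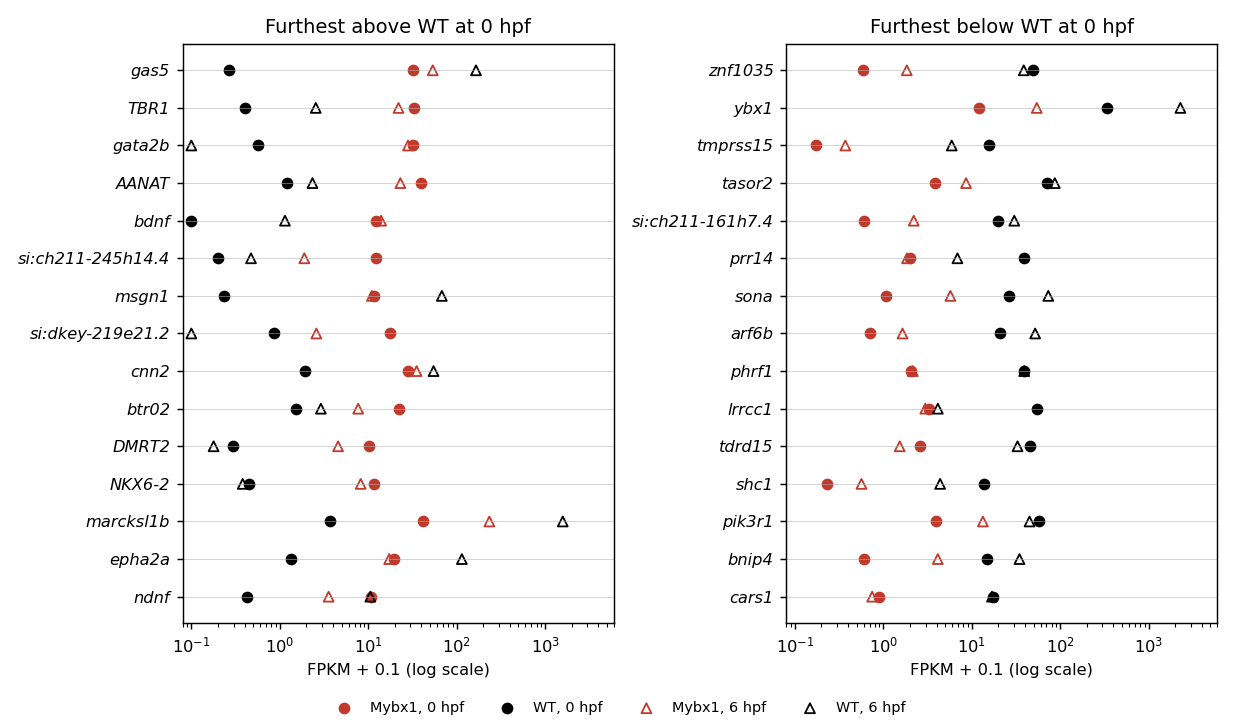
Levels in all 4 libraries (FPKM + 0.1, logarithmic x axis) of the 15 genes furthest above WT (left) and the 15 furthest below WT (right) at 0 hpf; filled circles are 0 hpf, open triangles 6 hpf, red Mybx1 and black WT. On the right, red symbols of both stages lie left of black ones in nearly every row, while on the left the black triangles of gas5, msgn1, epha2a and marcksl1b lie right of the red ones.

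Genes of the secretory pathway were below WT more often than above it. Of 26 counted genes of the unfolded protein response 7 were lower (26.9%) and 0 higher, beside 6.7% and 8.85% of all counted genes. The median log2 difference of the list was -0.35, beside 0.07 over all counted genes. Lower were the site-1 protease gene mbtps1, which cleaves Atf6 and the sterol-regulated SREBP factors, 7.76-fold (6.54 to 9.27), at 4.89 FPKM in Mybx1 and 37.9 FPKM in WT, and the stress-induced pseudokinase gene trib3, 11.9-fold (8.35 to 17.4). Degradation factors of the endoplasmic reticulum (ER) were also lower, with edem3 at 0.568 FPKM in Mybx1 and 4.84 FPKM in WT, sel1l at 16.1 and 40.1 FPKM, herpud1 at 28.5 and 58.8 FPKM and herpud2 at 3.16 and 8.61 FPKM. The seventh was the co-chaperone gene dnajc3a, 4.15-fold lower (3.23 to 5.39). The main ER chaperone gene hspa5 was at 554 FPKM in Mybx1 and 896 FPKM in WT, within 2-fold. That these genes lay below WT was known when the list was drawn up, so the count is no independent evidence.

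The machinery of folding, entry and export had medians on the same side. The share of lower genes was 16.7% for ER folding and 16.7% for the COPII and COPI coats, beside 6.7% of all counted genes. For targeting and translocation it was 6.25%, close to the share of all genes. Of 30 ER folding genes 5 were lower and 0 higher (median -0.36): mogs, the glucosidase that starts glycan trimming, 11.04-fold (8.26 to 15.1), the calreticulin gene calr3b, 4.67-fold (4.15 to 5.28), the disulfide isomerase gene pdia4, 2.71-fold (2.50 to 2.93), the oxidase gene ero1b, 2.49-fold (1.78 to 3.52), and calnexin (canx), at 23.2 FPKM in Mybx1 and 49.1 FPKM in WT. Of 32 genes for targeting and translocation into the ER 29 were below 0 on the log2 scale (median -0.49), but only 2 passed 2-fold. These were tram1, next to the translocon, with 15.5 FPKM in Mybx1 and 124 FPKM in WT, 8.04-fold lower (7.09 to 9.15), and tusc3, an oligosaccharyltransferase subunit, at 0.449 and 2.60 FPKM. Of 30 genes of the COPII and COPI coats 5 were lower and 0 higher (median -0.30), with sec24d, the COPII cargo adaptor, at 0.808 FPKM in Mybx1 and 9.36 FPKM in WT, sec16b at 0.548 and 3.79 FPKM, and the coatomer genes copb1 at 28.4 and 76.1 FPKM, ARCN1 (a symbol of 2 genes) at 63.3 and 131 FPKM and copg2 at 83.9 and 170 FPKM. The 4 lists had medians below 0 under every scaling tried, but these scalings could hardly have moved them past 0. They moved the median of all counted genes only from 0.07 to -0.01 at the lowest.

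The egg coat itself, which passes through this pathway, split by gene. Of 20 genes for zona pellucida proteins, a list chosen after its values were seen, 5 were lower (25%) and 2 higher (10%), with a median of -0.68. The shares over all counted genes were 6.7% and 8.85%. The most abundant of the 5 were zp3b at 121 FPKM in Mybx1 and 354 FPKM in WT, 2.93-fold lower (2.73 to 3.14), and zp3e at 57.8 and 189 FPKM, 3.27-fold lower (2.98 to 3.60). The other 3 were zpax1 at 35.7 FPKM in Mybx1 and 74.4 FPKM in WT, zp2.6 at 5.87 and 21.5 FPKM, and zp2.1 at 1.12 and 3.84 FPKM. Higher were zpd at 33.6 FPKM in Mybx1 and 10.4 FPKM in WT, 3.24-fold (2.56 to 4.13), and zpcx at 49.4 and 18.1 FPKM, 2.74-fold (2.28 to 3.29). The family was thus not lower throughout. The oocyte transcription factor gene figla, whose mouse counterpart is required for zona pellucida genes, was itself higher, at 46.4 FPKM in Mybx1 and 5.42 FPKM in WT, 8.56-fold (5.54 to 13.8). The oocyte growth factor genes gdf9 (22.1 FPKM in Mybx1 and 11.7 FPKM in WT) and bmp15 (97.0 and 137 FPKM) and the oocyte gene zar1 (183 and 102 FPKM) stayed within 2-fold.

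Genes that charge tRNA and start translation were lower for some members and near WT for most. The share of lower genes was 22.2% for the synthetases, beside 6.7% of all counted genes. For translation factors it was 8.33%, close to the share of all genes. Of 18 aminoacyl-tRNA synthetases 4 were lower and 0 higher (median -0.55, 15 below 0): cars1, for cysteine, 21.6-fold (13.5 to 36.7) at 0.804 FPKM in Mybx1 and 17.3 FPKM in WT, gars1, for glycine, 3.53-fold (3.02 to 4.15), yars1, for tyrosine, 3.08-fold (2.75 to 3.46), and qars1, for glutamine, 2.23-fold (1.94 to 2.58). Of 84 translation factor genes 7 were lower and 1 higher (median -0.19). Lower were eif5, which acts in start codon selection, at 44.3 FPKM in Mybx1 and 232 FPKM in WT, and 2 genes with the symbol EIF4G2 at 13.8 and 139 FPKM and at 17.7 and 88.3 FPKM, and these 2 copies may share reads. The others were the release factor gene gspt1 (2 genes carry the symbol), at 0.302 FPKM in Mybx1 and 4.03 FPKM in WT, eif4a2 at 0.508 and 3.63 FPKM, eif2d at 14.4 and 40.7 FPKM and EIF3E at 12.4 and 32.0 FPKM. The higher member was EEF1AKMT4, matched by its name, a methyltransferase of an elongation factor and not a translation factor itself, at 31.6 FPKM in Mybx1 and 10.3 FPKM in WT.

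Ribosomal and mitochondrial proteins held closer to WT. Of 83 cytosolic ribosomal protein genes 82 stayed within 2-fold (median -0.13), and rpl12 was lower at 184 FPKM in Mybx1 and 411 FPKM in WT. Of 73 mitochondrial ribosomal protein genes mrps22 was 5.73-fold lower (4.16 to 8.04) and mrpl38 2.95-fold (2.39 to 3.67), with a median of 0.04 that turned to -0.04 with median-ratio scaling. Of 92 nuclear genes of the respiratory chain 91 stayed within 2-fold (median -0.06), and ndufs5 was lower, at 59.6 FPKM in Mybx1 and 126 FPKM in WT. The 13 mRNAs encoded in the mitochondrial genome all lay above 0 with a median of 0.39, and none passed 2-fold: MT-CO3 had 621 FPKM in Mybx1 and 473 FPKM in WT, and MT-CO1 762 and 687 FPKM. Ribosome biogenesis had 6 of 48 genes lower (12.5%, beside 6.7% of all counted genes) and 0 higher (median -0.11). Lower were polr1b and polr1a, the large subunits of RNA polymerase I, 4.24-fold (3.35 to 5.41) and 3.06-fold (2.75 to 3.40). Also lower were noc2l, 4.11-fold (3.34 to 5.09), and nop2, 5.26-fold (2.74 to 11.1). The others were imp4 at 22.6 FPKM in Mybx1 and 50.5 FPKM in WT, and utp15 at 30.9 and 68.3 FPKM.

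Among growth factor signalling genes, adaptors and subunits of phosphoinositide 3-kinase differed in both directions. Of 32 counted genes of this kinase, its adaptors and the TSC complex, a list chosen after its values were seen, 8 were lower (25%) and 4 higher (12.5%), with a median of -0.08. The shares over all counted genes were 6.7% and 8.85%. The receptor adaptor gene shc1 had 0.129 FPKM in Mybx1 and 13.6 FPKM in WT, 106-fold lower (29.0 to 882). The docking protein gene gab1 had 2.24 FPKM in Mybx1 and 23.5 FPKM in WT, 10.5-fold lower (7.596 to 14.8). The regulatory subunit gene pik3r1 had 3.86 FPKM in Mybx1 and 57.8 FPKM in WT, 14.98-fold lower (11.7 to 19.4). The catalytic subunit gene pik3ca was lower as well, at 0.838 FPKM in Mybx1 and 9.16 FPKM in WT, as was TSC1, a symbol of 2 genes, at 1.86 and 45.3 FPKM. The other lower members were pik3c2a at 13.3 FPKM in Mybx1 and 35.4 FPKM in WT, pik3c3 at 7.23 and 16.7 FPKM and IRS2 at 0.784 and 3.06 FPKM. On the other side, pik3r5, a regulatory subunit of the class activated by G proteins, had 8.73 FPKM in Mybx1 and 0.187 FPKM in WT, 46.6-fold higher (17.9 to 173). The adaptor gene pik3ap1, the inhibitor gene pik3ip1 and akt1 were 8.21-fold (4.49 to 16.4), 2.85-fold (2.11 to 3.90) and 2.65-fold higher (1.65 to 4.40). Members of 1 pathway thus stood on both sides of WT. Of 27 mTORC1 genes 2 were lower, TSC1 and rragd (1.22 FPKM in Mybx1 and 3.65 FPKM in WT), and 1 was higher, the sestrin gene sesn1, at 18.1 and 7.27 FPKM (median -0.18).

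The chromatin and zinc finger lists each had more lower than higher members. Of 40 chromatin modifier genes 6 were lower (15%, beside 6.7% of all counted genes) and 0 higher (median -0.22). Besides tasor2 these were its relative tasora, 3.06-fold lower (2.71 to 3.46), the histone H3K9 methyltransferase gene SETDB1 (a symbol of 2 genes) at 11.4 FPKM in Mybx1 and 83.7 FPKM in WT, and the Morc ATPase gene morc3a at 2.79 and 11.2 FPKM. The DNA methyltransferase gene dnmt3bb.2 had 17.3 FPKM in Mybx1 and 43.8 FPKM in WT, and the bromodomain gene brdt 9.23 and 23.3 FPKM. Of 148 counted genes with znf symbols 23 were lower (15.5%) and 13 higher (8.78%), beside 6.7% and 8.85% of all counted genes. The median of the list was -0.02. After znf1035 the lowest were znf770, 11.3-fold (8.20 to 15.9), znf592, 12.4-fold (7.55 to 21.6), and znf280d, 4.95-fold (4.22 to 5.84), and the highest znf1176, 10.2-fold (5.47 to 21.0), znf1156, 20.7-fold (5.38 to 177), znf488, 11.3-fold (5.71 to 25.4), and znf503, 3.35-fold (2.32 to 4.93). The middle of this large family lay close to that of all genes. Among 21 histone genes the variant genes macroh2a2 and macroh2a1 were lower, at 0.437 and 2.11 FPKM in Mybx1 and 4.12 and 5.56 FPKM in WT, and H2BK1 was higher at 67.2 and 25.4 FPKM (median 0.03, -0.05 with median-ratio scaling).

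Germ line, meiosis and division genes stayed mostly within 2-fold. Of 23 germ plasm and piRNA genes 3 were lower and 1 higher (median -0.12): the piRNA factors piwil1, 2.82-fold lower (2.39 to 3.34), and tdrd1, 2.88-fold lower (2.54 to 3.28), the kinesin gene KIF5B (a symbol of 2 genes), and nanos3, a translational repressor of germ cells, 2.39-fold higher (2.17 to 2.64). Of 13 meiosis genes mlh3, a mismatch repair protein of crossing over, was 9.93-fold lower (6.52 to 15.8) and brca2 4.27-fold lower (3.84 to 4.76; median -0.08). Of 35 cell cycle genes plk4, the kinase of centriole duplication, was 4.67-fold lower (3.90 to 5.61), wee1 6.43-fold lower (3.72 to 11.9) and cks2 11.4-fold higher (3.58 to 58.1; median -0.03). In 41 DNA replication genes pola2 and tyms were lower (median -0.08), and in 53 nuclear transport genes the exportin genes xpo1a, at 27.3 FPKM in Mybx1 and 164 FPKM in WT, and xpo7, at 4.23 and 13.8 FPKM (median -0.15). Among 29 kinesin genes 3 were lower and 0 higher (median -0.04), with kif3a 3.97-fold lower (3.29 to 4.84) beside kif19 and KIF5B. Of 12 tubulin genes 11 lay below 0 (median -0.36), tuba8l4 was lower at 113 FPKM in Mybx1 and 311 FPKM in WT, and tuba1b was higher at 24.5 and 3.91 FPKM. In most of these lists, then, 1 to 3 members differed and the middle of the list stayed near WT.

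RNA processing genes were likewise close to WT. Of 50 spliceosome genes prpf8 and sf3b3 were lower, at 19.8 and 96.6 FPKM in Mybx1 and 54.0 and 206 FPKM in WT, and snrnp48 and snrpf higher, at 29.0 and 68.5 FPKM in Mybx1 and 6.68 and 30.9 FPKM in WT (median 0.10). Of 41 genes for deadenylation, decapping and the exosome 2 were lower, the decapping genes dcp1b, 5.47-fold (2.67 to 12.6), and edc4, 2.42-fold (2.19 to 2.68; median -0.16). None of 14 genes of nonsense-mediated decay and the exon junction passed 2-fold (median 0.08, -0.01 with median-ratio scaling), with eif4a3 at 271 FPKM in Mybx1 and 252 FPKM in WT and pnrc2 at 514 and 386 FPKM. LIN28A was the 1 gene past 2-fold of 16 for Argonaute proteins and microRNA processing (median -0.03), and ythdf3 and igf2bp1 were the 2 of 16 in the m6A list (median -0.13). Of 44 proteasome genes PSMC1 was lower, 2.73-fold (2.35 to 3.18), and PSMB9 higher, 4.15-fold (1.51 to 14.1; median -0.10). The deadenylation adaptor gene btg4, which acts in clearing maternal mRNA, was at 783 FPKM in Mybx1 and 556 FPKM in WT.

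Developmental transcription factors formed a large group above WT. Of 372 members matched, a list chosen after values were seen, 105 were counted, 36 of them were higher (34.3%) and 1 lower, with a median of 0.46. A member near 0 in WT had to be higher in Mybx1 to be counted, so this share describes the counted members alone, and 70 members were at 0 in both libraries. Members not counted summed to 65.8 FPKM in Mybx1 and 33.8 FPKM in WT. Within the mean range of 1 to 10 FPKM 27 of 67 members (40.3%) were higher, beside 17% of all genes of that range. At 10 FPKM or more 9 of 38 (23.7%) were higher, beside 3.74%. The median of the mean level was still lower for members in these ranges, at 2.65 and 23.2 FPKM, beside 3.29 and 35.95 FPKM for all genes. They came from several tissues and families. The retinal homeobox gene vsx1 had 10.5 FPKM in Mybx1 and 0.504 FPKM in WT. The Notch-responsive repressor genes hey1 and HES1 had 4.37 and 13.2 FPKM in Mybx1 and 0.0398 and 1.79 FPKM in WT. The Sox gene SOX8 had 25.2 FPKM in Mybx1 and 3.47 FPKM in WT, and snai2, of neural crest, 6.54 and 1.02 FPKM. Genes of motor neurons and heart were included, with isl1b at 7.57 FPKM in Mybx1 and 0.756 FPKM in WT, olig2 at 2.85 and 0.392 FPKM, and tbx20 at 4.96 and 0.870 FPKM. NEUROD6, a symbol of 2 genes, was the lower member, at 2.67 FPKM in Mybx1 and 12.4 FPKM in WT. Marker sums of other tissues, given above, were also mostly larger in Mybx1, and their part in these values was not tested. TBR1 belongs to the neural list as well as to this one.

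Collagens and glypicans, components of the matrix and the cell surface, also had counted members above WT. Of 65 members matched, again a list chosen after values were seen, 23 were counted, of which 10 were higher (43.5%) and 0 lower, with a median of 0.86. The collagen gene col28a1a had 8.01 FPKM in Mybx1 and 0.0644 FPKM in WT, 124-fold higher (21.9 to 4953), and col9a2 had 3.69 and 0.470 FPKM. Among glypicans, which carry heparan sulfate and bind Wnt and other ligands, gpc5c was 4.95-fold higher (2.96 to 8.75), GPC5 10.96-fold (5.06 to 28.2), and gpc4, a symbol of 3 genes, 3.79-fold (3.17 to 4.56). In the range of 1 to 10 FPKM 8 of 19 members (42.1%) were higher, beside 17% of all genes of that range. At 10 FPKM or more 2 of 4 were higher, beside 3.74%. Here too the median of the mean level was lower for members, at 2.40 and 17.8 FPKM, beside 3.29 and 35.95 FPKM for all genes. The filter on the mean acts on this list as on the last.

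Hormone, sterol, retinoic acid and clock lists had 2 or 3 members each above WT, shares of 14.3%, 15.8%, 13.3% and 10% beside 8.85% of all counted genes. Of 14 steroid synthesis genes 2 were higher and 0 lower (median 0.35). The 3-beta-hydroxysteroid dehydrogenase gene hsd3b2 was at 107 FPKM in Mybx1 and 25.6 FPKM in WT, 4.17-fold higher (3.64 to 4.80). The 5-alpha-reductase gene srd5a1 was at 1.83 and 0.221 FPKM, 8.29-fold higher (1.11 to 368), on 8 recovered reads in Mybx1 and 1 in WT. It was counted only through its level in Mybx1. Of 19 cholesterol synthesis genes 3 were higher and 0 lower (median 0.42), among them insig1, which holds the sterol sensor Scap in the ER, at 45.7 FPKM in Mybx1 and 17.8 FPKM in WT, and lss at 4.17 and 0.992 FPKM. Of 15 retinoic acid genes cyp26a1, which breaks the hormone down, was 9.42-fold higher (7.65 to 11.7) at 92.4 FPKM in Mybx1 and 9.81 FPKM in WT, the receptor gene rxrga was 5.56-fold higher (2.89 to 11.7) and the corepressor gene NRIP1 14.2-fold lower (8.55 to 25.2; median 0.09). Clock genes had 2 of 20 higher, nr1d2a, a Rev-erb, 4.42-fold (2.78 to 7.29), and tefa, 3.47-fold (2.76 to 4.40; median 0.38).

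Stress and early response genes stood on both sides of WT. Of 34 counted genes of the p53 and apoptosis list 7 were higher (20.6%) and 1 lower (2.94%), beside 8.85% and 6.7% of all counted genes. A member nearly absent from WT had to be higher in Mybx1 to be counted, so these shares describe the counted members alone. The median of the list was 0.33. Higher were the cell death effector genes pmaip1, 7.84-fold (4.64 to 14.2) at 17.2 FPKM in Mybx1 and 2.195 FPKM in WT, bbc3 at 2.63 and 0.486 FPKM and bmf2 at 2.11 and 0.0726 FPKM, and sesn1. The Akt inhibitor gene phlda3 had 2.21 FPKM in Mybx1 and 0.0888 FPKM in WT, and GADD45A and GADD45B, each a symbol of 2 genes, had 5.24 and 3.40 FPKM in Mybx1 and 1.01 and 0.122 FPKM in WT. Except for pmaip1 and sesn1 these stood under 6 FPKM in Mybx1. The lower member was mdm4, a p53 inhibitor, 2.16-fold (1.93 to 2.41). Of 17 heat shock genes hsf2 and hsp90ab1 were lower, 3.42-fold (2.77 to 4.24) and 2.04-fold (1.97 to 2.11), and hsp70.1 was higher, 5.56-fold (2.89 to 11.7; median -0.22). Of 19 targets of the integrated stress response SLC3A2 and gpt, each a symbol of 2 genes, were higher and 0 were lower (median 0.16). Of 23 immediate early genes matched 9 were counted (median 0.65). Higher were klf2a, ier5l and fosaa, each under 5 FPKM in Mybx1 and at 0.485, 0.236 and 0.364 FPKM in WT. They were counted only through their level in Mybx1, so the count and median describe the counted members alone. The lower member was nr4a1, 2.21-fold (1.64 to 3.01). Among 9 genes of interferon and innate immunity the RNA editing enzyme gene adar was lower, at 3.98 FPKM in Mybx1 and 19.7 FPKM in WT (median -0.29).

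Maternal activators and the Nodal, BMP and Wnt lists were mostly near WT. Among 8 counted maternal activators of the zygotic genome mych, a relative of Myc, was higher at 34.7 FPKM in Mybx1 and 7.6 FPKM in WT, 4.56-fold (3.74 to 5.59; median 0.25). The others that define this group stayed within 2-fold, with nanog at 375 FPKM in Mybx1 and 325 FPKM in WT, sox19b at 349 and 284 FPKM and pou5f3 at 219 and 153 FPKM. In the Nodal list 1 of 16 genes was higher, SMAD3 (2 genes carry the symbol; 4.11 FPKM in Mybx1 and 1.40 FPKM in WT), and 1 lower, the receptor gene ACVR2A (22.2 and 45.8 FPKM; median 0.22). The maternal ligand gene gdf3 had 473 FPKM in Mybx1 and 508 FPKM in WT, and ndr1, whose mRNA is a known target of Ybx1 in zebrafish, was not counted at 0.688 and 0.166 FPKM. Of 16 BMP genes 2 were higher, both under the symbol BAMBI, a decoy receptor, at 40.1 and 5.02 FPKM in Mybx1 and 5.30 and 1.21 FPKM in WT (median 0.25). Of 25 Wnt genes porcn (a symbol of 2 genes) was higher and KIF5B lower (median 0.08, just under 0 with median-ratio scaling).

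The remaining lists had few members past 2-fold. Of 29 adhesion and claudin genes JUP, which encodes plakoglobin (2 genes carry the symbol), and cldnd1a were higher, 2.04-fold (1.84 to 2.27) and 2.95-fold (2.57 to 3.39; median 0.28), though JUP fell short of 2-fold as TPM (0.98) and with median-ratio scaling (0.93). Of 23 genes of actin and the cortical granules the cofilin gene cfl1l was higher at 393 FPKM in Mybx1 and 152 FPKM in WT (median 0.01, -0.07 with median-ratio scaling). Of 36 lysosome and yolk uptake genes 1 was lower, ATP6V1A (2 genes carry the symbol), a subunit of the proton pump, 4.13-fold (3.46 to 4.96; median 0.16). Of 18 glycolysis genes eno3 was lower at 311 FPKM in Mybx1 and 760 FPKM in WT, and ldha and ldhbb were higher at 29.2 and 3.77 FPKM in Mybx1 and 11.8 and 0.727 FPKM in WT (median -0.12).

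**Figure D4:**
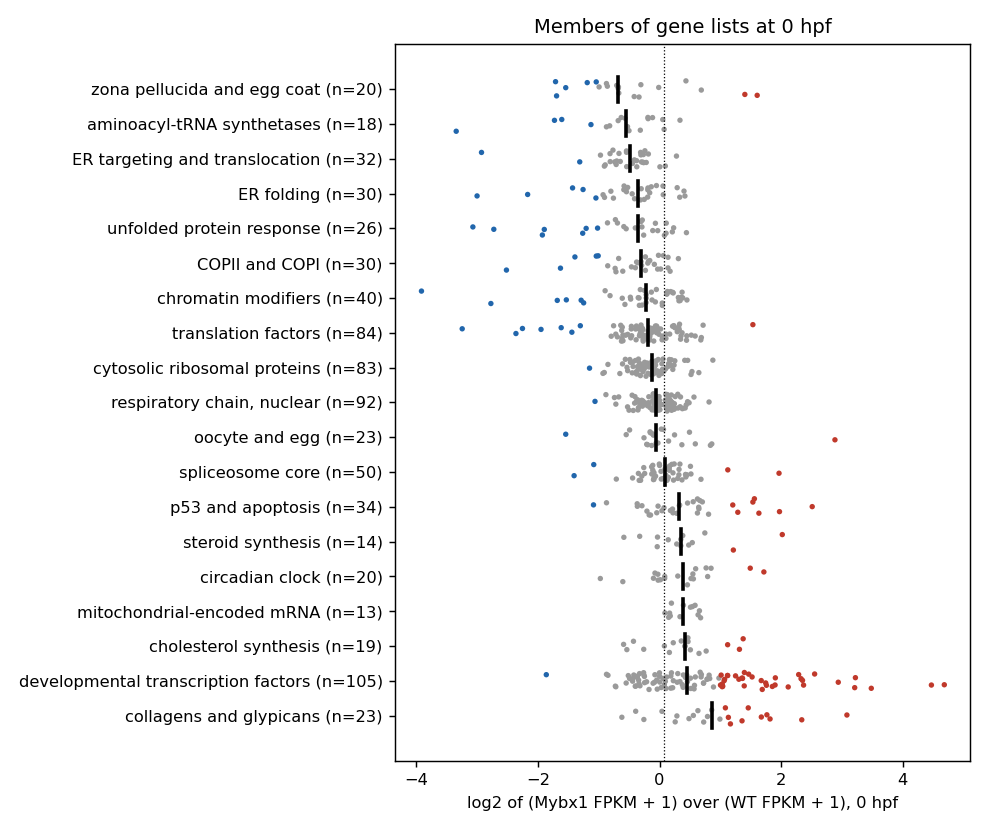
Each point is a counted member of a gene list, placed by its log2 difference at 0 hpf (Mybx1 over WT, FPKM + 1); red points are higher and blue points lower by at least 2-fold, the black bar is the list's median and the dotted line the median of all counted genes (0.07), with the number of members beside each name. Among the lists drawn, medians run between -0.68 for the zona pellucida list and 0.86 for collagens and glypicans, and blue points are present in most of the lists drawn.

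Counted long non-coding RNAs had a larger share above WT than counted mRNAs did, a description with no test. Of 68 counted genes that RefSeq annotates as long non-coding 18 were higher (26.5%) and 4 lower (5.88%), with a median of 0.56, and of 10946 protein-coding genes 7.52% were higher and 6.73% lower. At a mean of 1 to 10 FPKM the shares were 30.4% and 6.52% of 46 long non-coding genes and 15.8% and 9.78% of 3652 protein-coding ones. Within that range the median of the mean level was still lower for long non-coding genes, at 2.41 FPKM beside 3.62 FPKM. A gene near 0 in WT had to be higher in Mybx1 to be counted, so these shares describe the counted genes alone. The nuclear RNA malat1 had 10.5 FPKM in Mybx1 and 2.21 FPKM in WT. Of 37 counted host genes and small non-coding RNAs, out of 163 matched, 12 were higher (32.4%) and 6 lower (16.2%). The median was 0.19, and the shares over all counted genes were 8.85% and 6.7%. In this list rn7sk, the 7SK RNA that holds back the elongation factor P-TEFb, was 3.13-fold lower (2.65 to 3.72). It had 77.8 FPKM in Mybx1 and 244 FPKM in WT. Small RNAs shorter than a sequenced fragment are poorly caught by such libraries, and several rest on 0 reads in 1 library, such as SNORD83 (3.60 FPKM in Mybx1 and 0 in WT) and SNORA77B (0 and 5.12 FPKM). SNORD83 had 2 recovered reads in Mybx1 and SNORA77B 5 in WT. Such members were counted only through the library where they were present, so the shares of this list describe its counted members alone.

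Genes near ybx1 were past 2-fold at a share close to that of all genes. Neighbours were drawn from counted genes with a RefSeq match and an unshared symbol, in the gene order of RefSeq. Of the 100 of these nearest to ybx1 on its chromosome 4 were higher and 8 lower, 12%, a share given without a test. The share of all counted genes was 15.6%. That share also covers 2779 genes with no RefSeq match, of which 13.5% were higher and 6.59% lower, so the sets are not alike. The share was 14% of the nearest 50 and 13% of the nearest 200. The lower ones were frmd3, 30.1-fold (12.6 to 94.0), si:dkeyp-104h9.5, 6.10-fold (4.59 to 8.24), fhip2b, 5.22-fold (3.94 to 7.01), arid5a, gck, cacna1db, piwil1 and qars1. The higher ones were RASSF2, 6.90-fold (5.12 to 9.49), plp2b, 4.31-fold (2.77 to 6.97), gkap1, at 316 FPKM in Mybx1 and 134 FPKM in WT, and golm1, at 78.6 and 34.9 FPKM.

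The genes past 2-fold at 0 hpf were followed in the 6 hpf libraries, which did not enter the 0 hpf comparison. Of 1120 genes higher in Mybx1 at 0 hpf and counted at both stages, 753 were higher at 6 hpf (67.2%) and 110 lower (9.82%), beside 44.2% and 12.8% of all 13009 genes counted at both stages. Of 819 genes lower at 0 hpf, 339 were lower at 6 hpf (41.4%), 389 within 2-fold and 91 higher (11.1%). The median log2 difference at 6 hpf was 1.62 for the higher set, -0.69 for the lower set and 0.78 for all. In the higher set the median level was 7.40 FPKM in Mybx1 and 1.77 FPKM in WT at 0 hpf, and 6.87 and 1.56 FPKM at 6 hpf, with a median change between stages of -0.12 in Mybx1 and -0.11 in WT. Among the 524 of mean at least 5 FPKM at 0 hpf that change was -0.24 in Mybx1 and -0.72 in WT. In the lower set it was 4.55 FPKM in Mybx1 and 17.0 FPKM in WT at 0 hpf, and 4.05 and 7.80 FPKM at 6 hpf, with a median change between stages of -0.06 in Mybx1 and -0.89 in WT. Over all these genes the median change between stages was -0.10 in Mybx1 and -0.85 in WT. With median-ratio scaling 61.1% of the higher set and 49% of the lower set kept their direction, beside 34.4% and 19% of all.

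**Figure D5:**
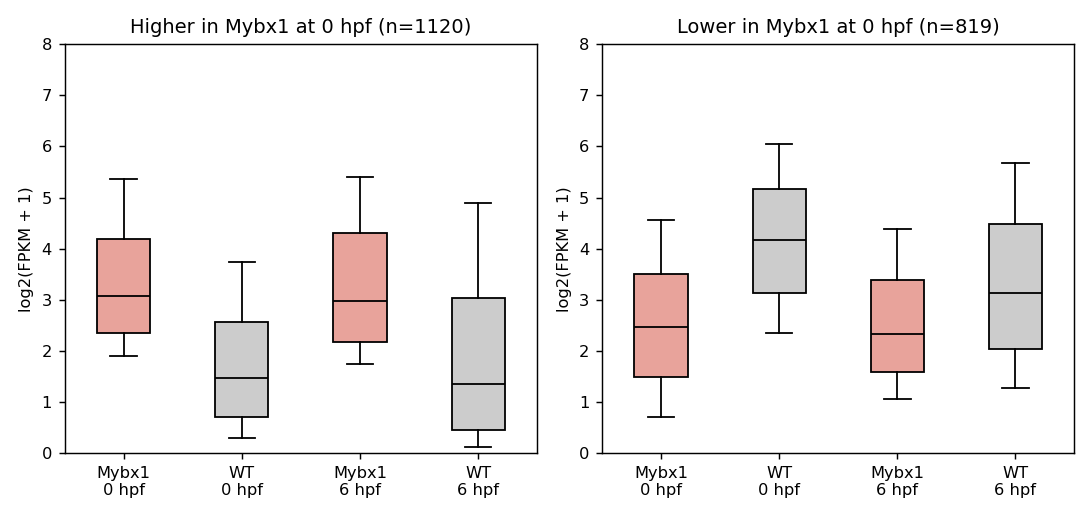
Boxes give log2(FPKM + 1) in the 4 libraries for the 1120 genes higher (left) and the 819 genes lower (right) in Mybx1 at 0 hpf that were also counted at 6 hpf, with the median as a line, quartiles as the box and the 10th and 90th percentiles as whiskers; red is Mybx1 and grey WT. In the left panel Mybx1 lies above WT at both stages (medians of 6.87 and 1.56 FPKM at 6 hpf), and in the right panel it lies under WT (4.05 and 7.80 FPKM).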

How the data were processed

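The authors deposited FPKM values for 4 libraries in 1 table, with 0 columns from elsewhere. Bowtie2 2.2.3, TopHat2 2.0.12 and HTSeq 0.6.1, and the build GRCz10, are listed in the submitters' processing notes without roles. Annotation, FPKM formula, strandedness and treatment of shared reads are not given in the sources used here; overlapping or near-identical genes may therefore share reads. FPKM values are shares of a library, so a change in total RNA leaves no trace in them.

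Low FPKM values were whole multiples of a step, which gave each library's total and the smallest whole reads of all 25595 genes above 0. These reads and the gene lengths recovered with them are lower limits, so intervals from the reads are if anything too wide. Intervals cover counting error only.

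Differences are log2(FPKM + 1), Mybx1 over WT. There was 1 library per group, so no p-value was computed. Named genes were ybx1, the 15 furthest in each direction with an unshared symbol and a mean of at least 5 FPKM, the 10 most abundant, up to 4 per list and direction, the genes past 2-fold among the 100 nearest to ybx1, and those at the threshold of 1 FPKM; other genes were named after their values were seen. Members and all lists (55, plus 4 chosen after values were seen) were chosen with earlier results of these data known. Symbols came from a gene-name table, and 2046 counted genes share theirs with another gene. The RefSeq table of assembly GRCz12tu, which matched 11032 counted genes, gave only names, kind and gene order. No coordinates or sequences are given, since no genome was used here. The steps were tested on simulated reads, drawn from the recovered lengths and reads with counting error only. Such data hold no spread between clutches, extractions or library preparations. Alternatives were pseudocounts of 0.1 and 5, filters at 5 FPKM and none, TPM, median-ratio scaling, leaving out abundant genes, and calls that need the counting interval to exclude 1. Python 3.11.15, pandas 2.3.3, numpy 2.4.6 and scipy 1.17.1 were used.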

Additional observations from a re-analysis of the deposited data

Results flagged for a closer look

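For 10 named genes the difference between Mybx1 and WT ran one way at 0 hpf and the other way at 6 hpf, each time past 2-fold and together at least 4 apart on the log2 scale. The difference between stages was not tested, since each group has 1 library. All 10 were higher in Mybx1 at 0 hpf and lower at 6 hpf. The log2 differences (Mybx1 over WT) at 0 and at 6 hpf were 4.81 and -1.61 for gas5, 3.48 and -2.53 for the mesoderm gene msgn1, 3.19 and -2.67 for the ephrin receptor gene epha2a, 3.19 and -2.75 for marcksl1b, and 3.13 and -1.36 for ndnf. They were 3.11 and -1.45 for cyp26a1, which breaks down retinoic acid, 2.71 and -2.05 for the more abundant gene with the symbol BAMBI, 2.05 and -2.05 for mych, 1.56 and -2.54 for ier5l, and 1.39 and -3.27 for SLC3A2. In Mybx1, cyp26a1 had 92.4 FPKM at 0 hpf and 49.3 FPKM at 6 hpf, against 9.81 and 136 FPKM in WT. For BAMBI the levels were 40.1 and 35.9 FPKM in Mybx1, against 5.30 and 152 FPKM in WT. The symbols BAMBI and SLC3A2 are each carried by 2 genes, so which copy the reads came from is uncertain.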

How the results depend on the processing

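The counts of genes past 2-fold depended on low values. Against 1222 higher and 926 lower, a pseudocount of 5 gave 358 and 439, and a filter at 5 FPKM gave 524 and 613; under both, lower genes outnumbered higher ones (44.9% and 46.1% of calls higher, against 56.9%). Of the genes higher at 0 hpf, 70.6% were higher at 6 hpf with the filter at 5 FPKM and 61.1% with median-ratio scaling, against 67.2%; of those lower, 49% were lower with median-ratio scaling, against 41.4%. The cause was not tested. Median-ratio scaling moved the median of all genes to -0.01. The 219 named counted genes include some that were within 2-fold from the start. Of those past 2-fold, 59 fell short of it with a pseudocount of 5. These alternatives could not show a change of direction for a gene past 2-fold. A pseudocount keeps the sign of a difference, and the scalings moved the median of all genes only from 0.07 to -0.01 at the lowest. No paired analysis was possible because each group has 1 library. Leaving out a replicate was not possible for the same reason. With 1 library a group, spread between clutches, extractions and library preparations cannot be told apart from genotype, and genes under a few FPKM rest on few reads.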

Other observations

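Some abundant transcripts stood above WT at 0 hpf, named here after their values were seen. The gene ENSDARG00000090941, which has no symbol, had 1440 FPKM in Mybx1 and 167 FPKM in WT at 0 hpf, and 883 FPKM in Mybx1 and 1272 FPKM in WT at 6 hpf. GLUL, a human-form symbol for the enzyme glutamine synthetase, had 364.5 FPKM in Mybx1 and 70.8 FPKM in WT at 0 hpf, a log2 difference of 2.35, and 283 FPKM in Mybx1 and 288 FPKM in WT at 6 hpf. LIN28A, described above with the proteins of stored mRNA, had 335 FPKM in Mybx1 and 74.5 FPKM in WT at 0 hpf, and 396 FPKM in Mybx1 and 341 FPKM in WT at 6 hpf. At 6 hpf GLUL and LIN28A were within 2-fold of WT.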
